A study of Mus musculus with 4 samples.

Results

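Distal H3K27ac regions that paired 1 to 1 between sham-operated and regenerating mouse liver are described here. H3K27ac is acetylation of lysine 27 of histone H3. A region entered when it overlapped exactly 1 region of the other group's list, both regions lay more than 3000 bp from the nearest transcription start site (TSS), and the width after partial hepatectomy (PHx) divided by the sham width, called the ratio below, was from 1 to below 3. These pairs were chosen by overlap, distance and width as measured in the same lists, so those quantities are given as descriptions. There were 1078 such pairs, 28.8% of the 3738 distal sham regions and 43.0% of the 2505 distal PHx regions. The complete lists held 11602 sham and 10170 PHx regions, of which 6164 paired 1 to 1 and 1362 of those were distal in both.

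The material was liver of wild-type C57/BL6J mice, either sham-operated or taken 12 h after 70% hepatectomy, with 2 libraries per group. Age and sex were not given in the sources used here, and the sham libraries carry no time in their labels, while the series' design text names 0 h. H3K27ac was mapped by CUT&Tag, in which an antibody to the mark guides a pA-Tn5 transposase that cuts and tags the DNA around it. Each group came as 1 merged list of regions without read counts or signal, so no value has a replicate error, the depth is unknown and no p-value can be given. Regions are not replicates, and the 95% intervals given with shares are exact Clopper-Pearson intervals for counting error only. The lists came from whole liver, so a region may stem from any of its cell types. A gene list of plasma and acute phase proteins, which hepatocytes express, held 56 genes, and the region lists name 31 of them. Of those 31, 30 had a promoter region in both groups and 1 in PHx only.

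Acetylated regions away from promoters are commonly read as candidate enhancers, stretches that bind transcription factors and act on promoters over a distance within the same chromosome. H3K27ac marks active enhancers and promoters alike, and distal acetylation is more specific to cell type than promoter acetylation. In liver, enhancers are bound by hepatocyte factors such as HNF4A, FOXA and C/EBP proteins. Removal of most of the organ drives the remaining hepatocytes from quiescence into the cell cycle. The nearest gene need not be the gene that a distal region acts on.

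The sequence of the distal regions themselves was not analysed here. For the genes nearest to 3 pairs with a promoter region in both groups, Akap13, Aldh8a1, Rad51b and Macroh2a3, RefSeq promoter windows (GRCm38.p6, 250 bases before to 50 after the start) were matched by symbol, and 3 of the 4 had one. Of several windows of a gene the one listed first is given. These windows are shown because their genes have the most shared distal regions. CG dinucleotides are in capitals. Promoters rich in CG are often active in many tissues. The window of Akap13 (chr7:75455284-75455583, plus strand) held 17, that of Rad51b (chr12:79297032-79297331, plus strand) 10 and that of Aldh8a1 (chr10:21377050-21377349, plus strand) 4, where the median of all 32851 windows was 7.
Akap13: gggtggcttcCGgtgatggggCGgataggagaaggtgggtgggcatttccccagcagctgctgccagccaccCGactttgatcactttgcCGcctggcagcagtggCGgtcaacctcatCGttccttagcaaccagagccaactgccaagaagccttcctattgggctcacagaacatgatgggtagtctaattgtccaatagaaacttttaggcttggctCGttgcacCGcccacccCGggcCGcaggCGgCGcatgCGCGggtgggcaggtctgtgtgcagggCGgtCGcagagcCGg
Rad51b: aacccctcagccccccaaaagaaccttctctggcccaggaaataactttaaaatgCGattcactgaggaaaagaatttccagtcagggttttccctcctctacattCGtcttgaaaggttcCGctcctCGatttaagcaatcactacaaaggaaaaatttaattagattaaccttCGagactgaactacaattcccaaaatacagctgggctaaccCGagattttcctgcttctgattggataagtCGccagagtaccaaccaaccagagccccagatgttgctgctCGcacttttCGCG
Aldh8a1: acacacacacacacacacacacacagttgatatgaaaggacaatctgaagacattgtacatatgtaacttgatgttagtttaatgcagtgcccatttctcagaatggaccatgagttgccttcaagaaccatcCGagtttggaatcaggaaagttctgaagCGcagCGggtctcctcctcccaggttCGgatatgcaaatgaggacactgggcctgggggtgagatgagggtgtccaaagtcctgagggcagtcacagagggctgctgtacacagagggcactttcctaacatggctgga
The Akap13 window was richer in CG than 68.6% of all windows, that of Rad51b than 56.5% and that of Aldh8a1 than 31.4%. The promoter regions measured 8391 and 32770 bp at Akap13, 5870 and 10092 bp at Rad51b and 7559 and 12504 bp at Aldh8a1. The windows are from another build than the regions, so their place inside these regions was not compared.

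The sham regions of the pairs had a median width of 8015 bp (quartiles 6259.25 and 10585.75 bp), and the PHx regions 12954.5 bp (quartiles 10273 and 16786.75 bp). Where a pair of widths is given below, the sham width comes first. The median ratio was 1.54, with quartiles of 1.247 and 2.04, inside the limits set by the choice of pairs. A ratio of 2 or more was found in 291 pairs, so the set ran from regions of near equal width to regions that had more than doubled. Of all 1362 distal pairs, 79.1% had a ratio within the limits, against 79.5% of all 6164 pairs, promoters included. The distal pairs left out were 151 that were narrower after PHx and 133 with a ratio of 3 or more. The latter were narrow in sham, with a median of 5972 bp, and the narrower ones were wide, with a median of 11717 bp. Sham width is the denominator of the ratio that split these sets, so nothing is read from this difference.

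**Figure D1:**
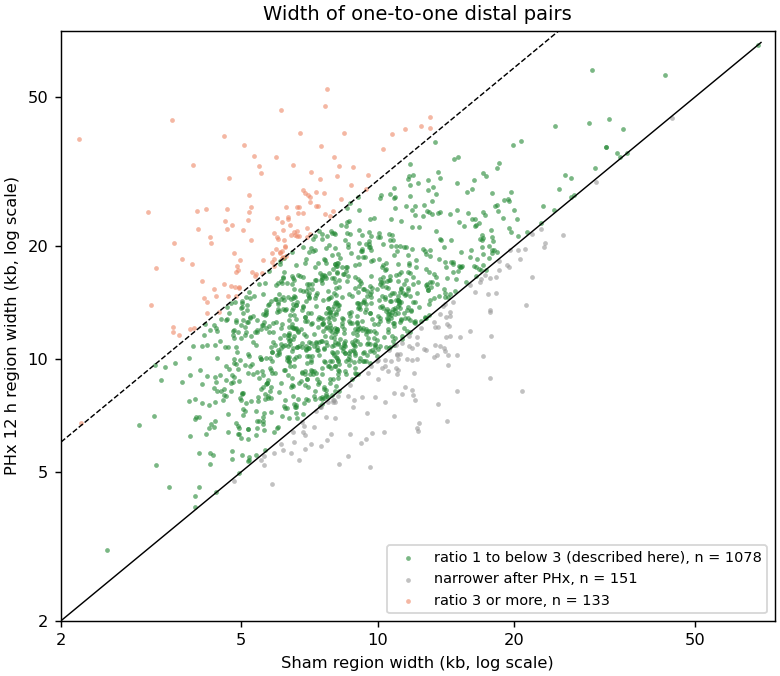
Width of each distal pair in sham (horizontal, kb, log scale) and after PHx (vertical, kb, log scale). The solid line marks equal width and the dashed line a ratio of 3. The 1078 pairs between the lines are described here, 151 lie below and 133 above.

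The limits fell between pairs with close values. Just below a ratio of 3 was an intron region of Yap1, the coactivator of the Hippo pathway, with sham and PHx widths of 9052 and 27141 bp. It was followed by regions nearest to Gm11765 (6456 and 19341 bp) and Gm30575 (6092 and 18249 bp). Just above 3 were intron regions of Hivep1 (5899 and 17729 bp) and Dapk1 (6256 and 18842 bp), and a region nearest to Gm40423 (4452 and 13388 bp). At the other limit, the pair at Gm30492 measured 35416 and 35444 bp. Just outside were pairs over an exon of Itpk1, nearest to Chga (19555 and 19551 bp), near LOC118567819 (10573 and 10564 bp) and near 2310015A10Rik (7461 and 7446 bp). By distance, pairs nearest to Ehmt1 and Iffo2 entered at 3004 bp and that of Gm15495 at 3043 bp, each in the list where it lay nearer to the TSS. Pairs of Gm52815, Gm5928 and Stpg1 did not enter, at 2963, 2846 and 2828 bp after PHx.

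The gain is described here by sham width, in 4 groups of near equal size. Over all pairs the PHx region was wider by a median of 4411.5 bp (quartiles 2272.75 and 7522 bp). In the 270 pairs narrowest in sham the median gain was 4578.5 bp, in the next 269 it was 4817 bp, then 4114 bp in 269, and 3786.5 bp in the 270 widest. The median ratio over the same groups was 1.90, 1.65, 1.47 and 1.27. The limit of 3 caps the gain of narrow regions more tightly than that of wide ones, and sham width is also the denominator of the ratio. Nothing is therefore read from the order of these medians. The largest gain was 12376 bp in the narrowest group and 29438 bp in the widest.

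The pairs shared most of their sham sequence. The sham region lay wholly inside the PHx region in 798 of 1078 pairs (74.0%, interval 71.3 to 76.6%), and at least 90% of it was covered in 998 (92.6%). In the other 280 pairs the PHx region reached further on one side and fell short on the other. The gain was similar on both sides: the PHx region began a median of 1726 bp before the sham region and ended 1871.5 bp after it. In only 4 pairs was under 50% of the sham region covered. The least overlap was at an exon of Slc6a6, which encodes the taurine transporter, where the sham region (chr6:91703060-91708468) and the PHx region (chr6:91708402-91721075) shared 67 bp. Next came pairs named for Uroc1 in sham (chr6:90317239-90324510) and Zxdc after PHx (chr6:90321744-90341297), and at Pbk (chr14:66019763-66027942 and chr14:66014796-66023680). For these 3 the pairing rests on a part of the sham region only.

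The lists name the peaks behind each region, numbered 1 and 2 in each group, which are taken here as the 2 libraries. Every region had at least 1 peak of each number. In 969 pairs (89.9%) all 4 peak sets gave exactly 1 peak. Several peaks came from sham set 1 in 49 pairs, from sham set 2 in 42, from PHx set 1 in 7 and from PHx set 2 in 38. Among all distal regions, 91.3% of those in sham and 93.0% of those after PHx had 1 peak of each library, and in the pairs these shares were 92.6% and 95.9%.

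By the authors' annotation of the sham regions, introns and intergenic sequence held similar shares of the pairs. There were 320 intron regions (29.7%, interval 27.0 to 32.5%) and 304 distal intergenic ones (28.2%, 25.5 to 31.0%). Exons held 232 (21.5%), 3′ UTRs 146 (13.5%), 5′ UTRs 58 (5.38%) and the stretch just downstream of a gene 18 (1.67%). Among all 3738 distal sham regions the intron share was 32.3% (30.8 to 33.8%) and the intergenic share 22.4% (21.0 to 23.7%). The intergenic interval of the pairs lay above that of the whole distal sham list, which contains them, and the intron intervals overlapped. By the PHx annotation there was no such excess, with 26.3% intergenic among the pairs and 26.3% (24.6 to 28.1%) among all distal PHx regions. The narrower distal pairs had 27.2% by their sham annotation, and distal PHx regions without overlap 30.04%. The difference has no test over animals. The rule may bear on it, since a sham region whose PHx partner lies within 3000 bp of a TSS is not counted. Regions are several kb wide, so one classed as exon or UTR can also cover intron sequence.

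The same pairs were classed differently by their wider PHx regions. Their intron share after PHx was 22.4% and the intergenic share 26.3% (23.7 to 29.0%), while exons and UTRs together went from 40.4 to 50.2%. Of the 320 sham intron regions 242 stayed intron, 51 became exon, 22 became 5′ UTR and 5 became 3′ UTR. No pair went the other way: all 242 PHx intron regions were intron in sham. Intergenic regions changed less, 283 of 304 keeping their class. The rule bears on these changes, since it leaves out the distal pairs that were narrower after PHx. Of those 151 pairs 29 were intron in sham and 33 after PHx. In all, 932 of 1078 pairs (86.5%) had the same class in both lists. Intron pairs had the median ratio 1.70, intergenic pairs 1.51, exon pairs 1.52, 3′ UTR pairs 1.49 and 5′ UTR pairs 1.47. Of the distal pairs with a ratio of 3 or more 52.6% (43.8 to 61.3%) were intron in sham. Of the narrower ones 19.2% (13.3 to 26.4%) were. By the PHx annotation these shares were 27.1% (19.7 to 35.5%) and 21.9% (15.5 to 29.3%). Sham width is the denominator of the ratio, so nothing is read from the contrast in sham.

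**Figure D2:**
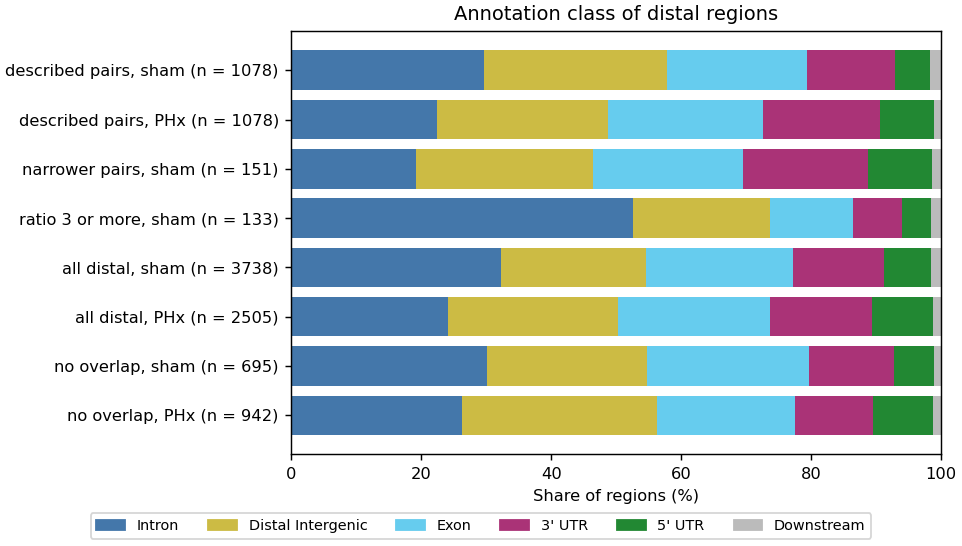
Annotation class of distal regions as a share of each set (horizontal, %). Bars give the described pairs by their sham and PHx annotation, the pairs outside the width limits, all distal regions of each list and those without overlap. The intron share of the described pairs is 29.7% in sham and 22.4% after PHx. That of pairs with a ratio of 3 or more is 52.6% by the sham annotation. By the PHx annotation, which is not drawn for them, it is 27.1%.

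By their sham regions the pairs lay farther from a TSS than the distal sham list as a whole, but not by their PHx regions. The distance runs from the nearer edge of a region to the nearest listed start, predicted transcripts included. In sham its median was 18481.5 bp (quartiles 10947.5 and 33327.75 bp), against 14129.5 bp (7743.25 and 26363 bp) for all distal sham regions. Between 3000 and 10000 bp lay 21.4% of the pairs and 35.7% of all distal sham regions, which the rule bears on, since a sham region whose PHx partner lies within 3000 bp of a TSS is not counted. Of the pairs 720 (66.8%) lay 10 to 50 kb away, 103 (9.55%) from there to 100 kb, and 24 (2.23%) beyond. After PHx the median distance was 16019 bp, against 16621 bp for all distal PHx regions, and where both lists named the same gene the region came nearer by a median of 1679 bp. Intron pairs lay farther from a start, with a median of 21426 bp, than intergenic pairs with 18481.5 bp, 3′ UTR pairs with 15737 bp and 5′ UTR pairs with 13529.5 bp.

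**Figure D3:**
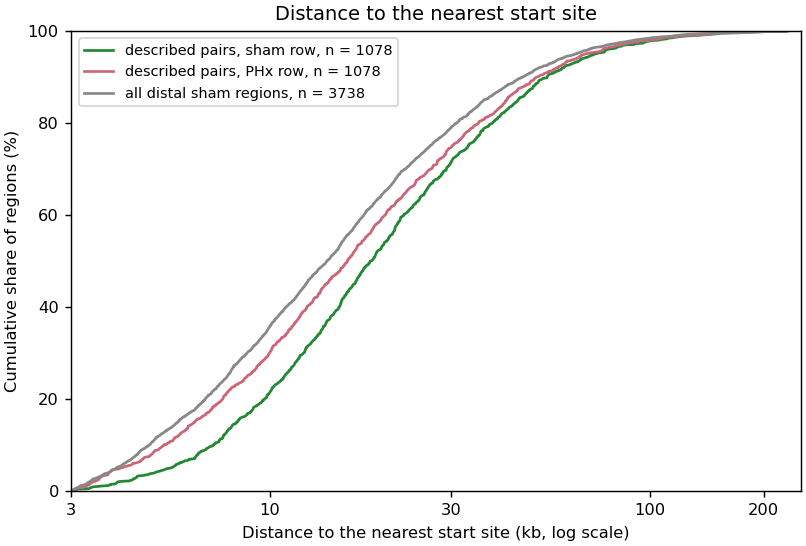
Cumulative share of regions (vertical, %) by distance to the nearest start (horizontal, kb, log scale). The described pairs are shown by their sham and PHx distances beside all 3738 distal sham regions. The sham curve of the pairs lies to the right, with a median of 18481.5 bp against 14129.5 bp for all distal sham regions.

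More pairs lay downstream of the nearest start than upstream, 646 of 1078 (59.9%, interval 56.9 to 62.9%), and 61.5% of all distal sham regions did. Intergenic pairs were the opposite, with 38.2% downstream. A region inside its nearest gene lies downstream of a start by its position, which an intergenic region does not. The share among all distal intergenic sham regions was not computed, so nothing about the pairs is read from this. Of the intron pairs 111 (34.7%) were in the first intron of the transcript named and 92 (28.8%) in the second. Among all distal sham intron regions the first intron held 42.3% (39.5 to 45.1%). The rule may bear on this contrast too, since sham regions whose PHx partner lies near a TSS are not counted. In 179 of the 320 intron pairs the host was also the nearest gene. In the others a second gene, often a noncoding one, had the nearer start.

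The pair farthest from a start was in an intron of Rad51b, a gene of homologous recombination repair, 230242 bp downstream. Its widths were 6471 and 15902 bp. A second Rad51b intron pair lay at 201709 bp. Beyond these came pairs named for Gm36048 (181753 bp), also in Rad51b, and an intron pair of Rora at 174089 bp upstream of the start used by the annotation. A pair over an exon of Adarb2, named for Wdr37, lay at 158069 bp. All 5 lay inside a host gene.

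The widest pair spanned an exon of Zbtb16, which encodes the zinc finger transcription factor PLZF. It spanned 68814 bp (chr9:48616432-48685245, sham) and 69079 bp (chr9:48616788-48685866, PHx), and its nearest start was that of Gm32280, 35049 bp away. Next came an intron region of Gse1 with 42991 and 57347 bp, the pair at Gm30492 with 35416 and 35444 bp, and a region over an exon of Ppp2r5e, a regulatory subunit of protein phosphatase 2A, with 34743 and 41099 bp. A 3′ UTR pair nearest to Nat10, an RNA cytidine acetyltransferase, measured 34217 and 34530 bp. Of these 5 wide pairs, 3 differed by under 1% between the groups. The narrowest pairs were an intron region of Gm36876 (2529 and 3082 bp), an intergenic region near Hdhd5 (2966 and 6668 bp) and one named for LOC118567999 (3204 and 7036 bp).

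Regions of almost equal width in both groups were not confined to wide ones. An intergenic region near Aldh8a1, an aldehyde dehydrogenase gene, had 7458 and 7470 bp. A region over an exon of Zfand3 had 11302 and 11324 bp. The intergenic regions near Mir6935 (17278 and 17332 bp) and Tmem247 (10861 and 10901 bp) also differed by under 1%. Largest in gain were a region over an exon of Dis3l2, from 29658 to 59096 bp, one over an exon of Itpr1, an inositol trisphosphate receptor, from 13391 to 37880 bp, and one over an exon of Asap1, from 11752 to 33153 bp.

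The 1078 pairs named 1004 different nearest genes by the sham list, 9.19% of the 10925 genes that either list names. Both lists named the same gene in 1029 pairs (95.5%). Protein-coding genes were nearest in 572 pairs (53.1%) and long noncoding RNA genes in 349 (32.4%, 29.6 to 35.3%). All distal sham regions had 58.7 and 28.4%. Pseudogenes, without those typed as transcribed, took 66 pairs, snRNA genes 21, microRNA genes 16 and snoRNA genes 13, and 31 names found no match. The few remaining pairs had other biotypes, transcribed pseudogenes such as Tyms-ps among them. Of all pairs 44.2% were named for a predicted gene (Gm, Rik or LOC names), which limits what the nearest gene says about function.

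In 437 pairs (40.5%, interval 37.6 to 43.5%) the nearest gene also had a promoter region in both groups. A promoter region is here one that the authors class as promoter of the gene, or one that overlaps a listed start of the gene ± 1 kb. In 104 pairs (9.65%) the gene had one in PHx only, in 40 (3.71%) in sham only, and in 497 (46.1%, 43.1 to 49.1%) in neither. Among all distal sham regions 53.4% (51.8 to 55.0%) had a nearest gene with promoter regions in both groups and 1122 of the 3738 in neither. Sham distal regions without any overlap after PHx had 38.6% and 48.8%. The rule bears on the contrast with all distal sham regions, since one whose PHx partner lies within 3000 bp of a TSS is not counted. Where the nearest gene was protein-coding, 322 of 572 pairs (56.3%) had it in both. Intron pairs had 47.5% in both, and intergenic pairs 32.9%.

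By the state of the promoter, the median ratio of the distal pairs was 1.54 at the 437 pairs with promoter regions in both groups and 1.56 at the 497 with none. The rule held the ratio between 1 and 3 in both sets, so nothing is read from these medians. The promoter regions of the 403 genes behind the former went from a median of 10013 to 19922 bp, with a median ratio of 1.74 (quartiles 1.20 and 2.71), and 368 of the 403 were wider after PHx. Promoter ratios were free of the limits of 1 and 3 that bound the distal pairs, so the 2 medians are not alike in construction. The widest promoter region of a gene was used.

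**Figure D4:**
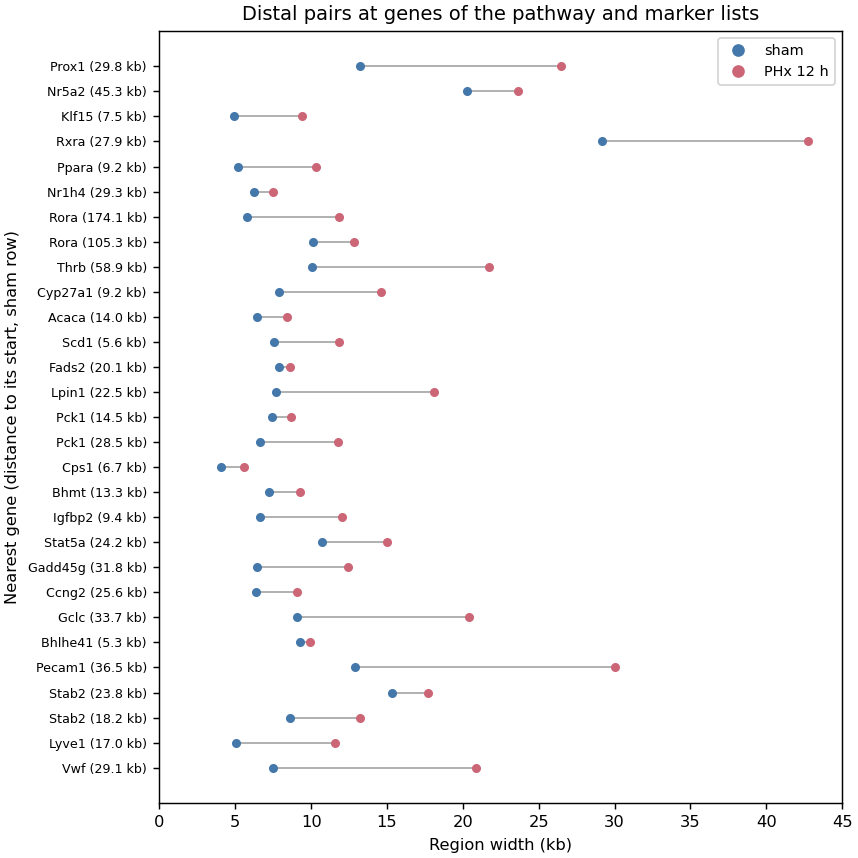
Width in sham and after PHx (horizontal, kb) of 29 pairs whose nearest gene is in one of the pathway or marker lists. Each row is 1 pair, with the distance to the start of its gene in brackets. The Rxra pair is the widest in both groups, with 29149 and 42766 bp.

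Among the hepatocyte transcription factors, 3 of the 12 genes named by the lists were nearest to a pair, and all 12 had promoter regions in both groups. An intron region of Prox1, a homeobox factor of hepatocyte and lymphatic identity, went from 13196 to 26480 bp, 29772 bp into the gene. A region over an exon of Nr5a2, the bile acid regulator LRH-1, measured 20263 and 23642 bp. An intergenic region 7543 bp upstream of Klf15, a factor of fasting metabolism, measured 4914 and 9410 bp.

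Of the nuclear receptors and cofactors, 5 of 16 genes (31.3%) were nearest to a pair. Rxra encodes the common partner of many receptors. Its pair, intergenic and 27852 bp upstream (chr2:27509457-27538605 in sham), measured 29149 and 42766 bp, beside a promoter region of 118578 and 117845 bp. At Nr1h4, the bile acid receptor FXR, the pair 29278 bp upstream had 6216 and 7474 bp, and the promoter region 14631 and 38443 bp. The pair at Ppara, the fatty acid receptor, had 5169 and 10325 bp, against 25724 and 130902 bp at its promoter. At Nr1h4 and Ppara the promoter region gained several times as many bases as the distal one. At Rxra the promoter region was slightly narrower after PHx. The rule lets no distal pair be narrower after PHx and caps its ratio, while promoter ratios were free of these limits. Nothing is therefore read from these contrasts, or from those between distal and promoter regions at the genes below.

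Large receptor genes held several pairs in their introns. Rora, which encodes the clock and lipid regulator ROR alpha, had 3 in its first intron. They measured 4996 and 13713 bp (chr9:68845550-68850545 in sham, nearest to Gm31262), 5756 and 11824 bp (chr9:69015441-69021196), and 10105 and 12832 bp (chr9:69079908-69090012). Its promoter region measured 59112 and 61203 bp. Thrb, the thyroid hormone receptor beta gene, had 10080 and 21750 bp in intron 2 (chr14:4616250-4626329). Its first intron held another with 24424 and 25054 bp (chr14:4766737-4791160), named for LOC115488350. The glucocorticoid receptor gene Nr3c1 held a pair over an exon with 6553 and 7451 bp, and its promoter region measured 8078 and 43878 bp.

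For lipid synthesis and oxidation 5 of 40 genes (12.5%) were nearest to a pair. The pair of Scd1, the stearoyl-CoA desaturase, lay 5588 bp upstream with 7560 and 11860 bp, and the promoter region of the gene was listed in sham only (9357 bp). At Fads2, a fatty acid desaturase, the distal pair measured 7853 and 8601 bp, and the promoter region 19116 and 105377 bp. Lpin1, which encodes a phosphatidate phosphatase, had an exon pair of 7687 and 18072 bp. Acaca, acetyl-CoA carboxylase, had 6428 and 8396 bp, and an intron of the hepatic lipase gene Lipc held 16945 and 19953 bp.

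For glucose and amino acid metabolism it was 3 of 32 genes (9.38%). Pck1, the gluconeogenic enzyme PEPCK, had 2 intergenic pairs downstream. The nearer, at 14462 bp (chr2:173009328-173016743), measured 7416 and 8668 bp. The farther, at 28461 bp (chr2:173023327-173029986), measured 6660 and 11776 bp. The Pck1 promoter region had 29765 and 40614 bp. Cps1, which feeds ammonia into the urea cycle, had a pair 6729 bp upstream with 4039 and 5601 bp, although its promoter region was listed after PHx only (29267 bp). Bhmt, of methionine metabolism, had 7246 and 9282 bp. Of 19 bile acid genes 1 (5.26%) was nearest to a pair, Cyp27a1, a sterol hydroxylase (7884 and 14597 bp).

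Signalling and stress genes gave 2 of 26 (7.69%) and 3 of 35 (8.57%). Igfbp2, a secreted binder of insulin-like growth factors, had 6612 and 12008 bp, and Stat5a, a mediator of growth hormone signals, 10744 and 15032 bp. Gadd45g, a growth arrest gene, had a pair 31812 bp downstream with 6461 and 12435 bp, and its promoter region measured 5780 and 41877 bp. Gclc, the catalytic subunit of glutathione synthesis, had 9075 and 20389 bp, and the atypical cyclin Ccng2 6337 and 9070 bp. Pairs inside Met, the receptor of hepatocyte growth factor (9058 and 12232 bp), Igf1 (8897 and 10272 bp) and the thioredoxin reductase gene Txnrd1 (5722 and 13901 bp) were named for other genes. Of 12 clock genes 2 (16.7%) were nearest to a pair, Rora and Bhlhe41 (9267 and 9895 bp).

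None of the 31 named genes of the plasma protein and acute phase list and none of the 19 of the xenobiotic metabolism list was the nearest gene of a pair. The lists do not hold all such genes. Outside them, and chosen after their values were seen, Klkb1, the plasma kallikrein gene, had a pair of 6543 and 11531 bp. Cpn1, a plasma carboxypeptidase gene, had 4145 and 12408 bp, and Ugt1a5, a glucuronosyltransferase gene, 6027 and 10547 bp. Of the list genes, 30 and 16 had promoter regions in both groups. Read against the background of 9.19%, the shares of the pathway lists ran from 0% to 31.3%, the latter being 5 of 16 nuclear receptor genes. The members were chosen from these lists, so the shares have no test and nothing particular to a list is read from them.

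Among markers of other liver cells, 4 of 13 endothelial genes (30.8%) were nearest to a pair, where the share over all named genes was 9.19%. This count has no test either. A region over an exon of Pecam1, which encodes CD31, measured 12912 and 30050 bp, with a promoter region after PHx only (21591 bp). A region over an exon of Vwf, von Willebrand factor, had 7519 and 20876 bp and no promoter region in either group. The pair 16972 bp upstream of Lyve1, in an intron of Mrvi1, measured 5080 and 11591 bp, and the Lyve1 promoter region 15252 and 38368 bp. Stab2, a scavenger receptor of sinusoidal endothelium, had 2 pairs, with 15334 and 17716 bp and with 8618 and 13251 bp, and a region at the start of a shorter predicted transcript in both groups. Over the 13 endothelial genes, promoter regions were in both groups for 4, after PHx only for 8 and in neither for 1. Of the 6 Kupffer cell and macrophage genes, 3 had them in both groups and 3 after PHx only. Of the 3 stellate cell and fibroblast genes, 1 had them in both and 2 after PHx only. The share over all named genes was not computed, so nothing particular to endothelial genes is read from these counts. No marker of Kupffer cells and macrophages (6 named by the lists), stellate cells and fibroblasts (3), lymphocytes and neutrophils (1) or other tissues (1) was the nearest gene of a pair. The single cholangiocyte marker that the lists name was not either. Whether shifts in cell composition took part in the widths was not tested.

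Most pairs stood alone. Members whose sham regions were separated by gaps of at most 100 kb were joined into loci, which gave 910 loci. A single pair made up 773 of them, 114 held 2 pairs, 17 held 3, 4 held 4 and 2 held 5. So 305 pairs (28.3%) lay in 137 loci with company, and 77 in the 23 loci with 3 or more. The median gap from a pair to the nearest other sham region of any kind was 18415.5 bp, and 5893 bp for the other distal sham regions. The rule bears on this gap, since neighbours joined by 1 PHx region do not pair 1 to 1.

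**Figure D5:**
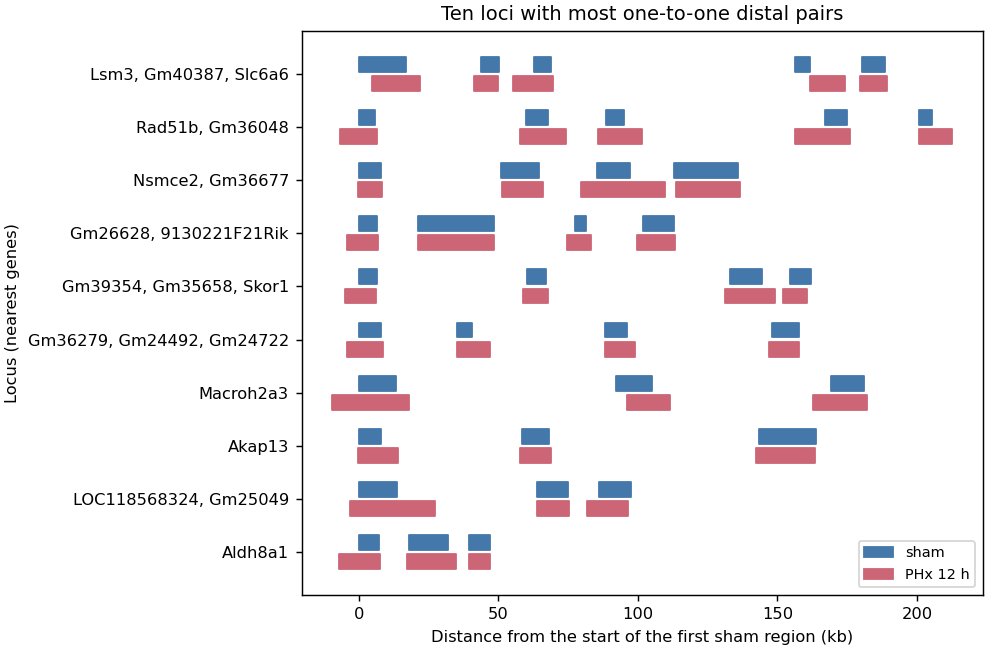
The 10 loci with most pairs, in order of number and summed sham width. Each bar is a region by its distance from the first sham region of the locus (horizontal, kb), with sham above and PHx below. By the rule no region is narrower after PHx. The 5 pairs in Rad51b have ratios of 2.14 to 2.46, while the loci of Nsmce2 and Gm26628 also hold bars of near equal width.

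Of the loci of 5 pairs, the one with the larger summed sham width (43253 against 32685 bp, but 62475 against 76910 bp after PHx) was on chromosome 6 (91546762 to 91735476), with pairs named for Lsm3, Gm40387 and Slc6a6. Its intergenic pair named for Lsm3 measured 16857 and 17278 bp. Those named for Gm40387 had 6493 and 8465 bp, and 6008 and 14167 bp. The pairs over an exon and the 3′ UTR of Slc6a6 had 5409 and 12674 bp, the pair with the least overlap, and 8486 and 9891 bp. The Slc6a6 promoter region measured 49546 and 49576 bp. Ratios of these 5 pairs thus ran from 1.02 to 2.36. The span held 7 sham and 7 PHx regions in all, and those outside the pairs are not described. The spans of loci below can also hold such regions.

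The other locus of 5 pairs lay inside Rad51b on chromosome 12 (79485924 to 79691504), with 4 pairs in intron 7 and 1 in intron 8 of its 13 introns. Here every pair had a ratio above 2, while the span held 5 sham and 6 PHx regions in all. In order along the chromosome they measured 5679 and 13154 bp, 7689 and 16435 bp, 6471 and 15902 bp, 8047 and 19817 bp, and 4799 and 11602 bp. Ratios ranged from 2.14 to 2.46, and the summed width went from 32685 to 76910 bp. The Rad51b promoter region was smaller than the PHx region of each of these pairs, with 5870 and 10092 bp.

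Of the loci with 4 pairs, that of Nsmce2, which encodes a SUMO ligase of the SMC5/6 complex, lay on chromosome 15 (59295396 to 59431200). Its intron pairs measured 8079 and 8463 bp, 13663 and 14711 bp, and 11658 and 30201 bp, and a further 3′ UTR pair 22889 and 23075 bp. So 3 of the 4 differed by under 8%. The locus on chromosome 6 at 71924774 to 72037810 began over an exon of Polr1a, the largest subunit of RNA polymerase I (6371 and 11147 bp). It continued with 27019 and 27435 bp named for Gm26628, and pairs of 3688 and 8662 bp and 11201 and 13720 bp named for 9130221F21Rik. That on chromosome 9 (62952515 to 63114445) included 11706 and 18021 bp near Skor1 and 7364 and 8552 bp in an intron of Map2k5, a kinase upstream of ERK5. That on chromosome 17 (84520675 to 84678311) had 2 pairs inside Thada, with 5349 and 11836 bp and with 9457 and 10975 bp.

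Loci of 3 pairs followed. On chromosome 15 (62028922 to 62210074) pairs over exons of Pvt1, the long noncoding RNA gene beside Myc, measured 13405 and 27509 bp and 13108 and 15519 bp, and an intergenic one 11916 and 19617 bp. All were named for Macroh2a3. Akap13, which encodes a kinase anchor protein, held 3 on chromosome 7 (75145101 to 75309057). Its first intron pair had 8098 and 14236 bp, the second intron pair 9810 and 11359 bp, and the 5′ UTR pair 20373 and 21362 bp. Zfand3 on chromosome 17 (30345537 to 30443186) held 2 pairs over exons, with 13687 and 30356 bp and with 11302 and 11324 bp. The 3 intergenic pairs downstream of Aldh8a1 on chromosome 10 (21295898 to 21342727) measured 7272 and 14530 bp, 14148 and 17612 bp, and 7458 and 7470 bp.

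By name, 68 genes were nearest to 2 or more pairs and 6 to 3, the most that any gene had. The latter were Macroh2a3, Akap13, Aldh8a1, Gm52305, Grsf1 and Rad51b. The pairs of Gm52305 all lay in the first intron of Zdhhc14, a palmitoyltransferase gene, with 8463 and 10358 bp, 13300 and 16832 bp, and 6833 and 16562 bp. Those of Grsf1, an RNA-binding protein of mitochondria, measured 8924 and 9459 bp over an exon of Rufy3, 7148 and 10195 bp, and 8328 and 12879 bp. Grsf1 had no promoter region in either list. By host transcript, 56 of 487 genes held 2 or more pairs. Rad51b held 5, and Nfia, Zdhhc14, Foxp1, Nsmce2, Rora and Prr16 held 3 each. In Nfia, the gene of a nuclear factor I protein, they had 6957 and 15218 bp, 8984 and 13032 bp, and 6486 and 13697 bp. In Foxp1, a forkhead factor gene, all 3 were at least 2-fold wider after PHx, with ratios of 2.03, 2.01 and 2.35. Of the 413 host genes with a listed start 258 had promoter regions in both groups. No such share is given for the hosts of all distal sham regions, so nothing about the pairs is read from it.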

How the data were processed

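H3K27ac was measured by CUT&Tag in 4 mouse liver libraries, 2 per group. Bowtie2, SEACR, ChIPseeker and DiffBind were used, per the submitters' processing notes, which assign them no role or version, on the mouse assembly GRCm39 (mm39). Per the file headers, the authors deposited 1 list of regions per group with positions, widths and distances in bp and an annotation class. The peak names show that peaks of each library were joined into these regions, so the widths depend on peak calling. The sources used here do not give caller thresholds or how joined edges were set. The replicates are not said to come from separate animals. Columns of per-sample values not used numbered 0.

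Regions overlapping by at least 1 bp were paired with pandas 2.3.3 and numpy 2.4.6, intervals came from scipy 1.17.1, and the pairing was tested on simulated regions. Biotypes came from a RefSeq table of GRCm38.p6, by name. The pairs and the 10 pathway and 6 marker lists were chosen with earlier results of these data known. Named were the loci and genes with most pairs, the widest, narrowest, farthest and most equal pairs, those at each limit, and genes of the lists; the pairs with least overlap and largest gain, and the promoter windows, were chosen after their values were seen. Some listed genes are not reported here by name, though the counts include them. Motifs in the regions were not analysed here.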

Additional observations from a re-analysis of the deposited data

How the results depend on the processing

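Results were recomputed with other overlap, distance, width and locus settings. Of 56 recomputed values 42 stayed within the 95% interval of the value given (for counts, within 1.5 times). Among these settings, taking regions not classed as promoter, whatever their distance, returned the same 1078 pairs. The values under that setting were therefore identical, and their place among the 42 says nothing about dependence on the processing. An overlap of 50% of each region gave a median ratio of 1.38 and 90 loci of 2 or more pairs, and this setting by its construction removes pairs with a ratio above 2. A distance over 10000 bp gave a median distance of 25798 bp and 67 loci. Ratios from 1 to below 2 gave a median ratio of 1.38 and 83 loci. Ratios from 0.5 to below 2 gave a median ratio of 1.29, a median distance of 17097.5 bp and 25.9% intron regions. By the PHx annotation the intron share was 22.4% and the median distance 16019 bp. Gaps of at most 50 kb gave 87 loci, and grouping by gene name 68. With promoter-class regions that name the gene alone, 32.7% of the pairs had promoter regions in both groups. No paired analysis was possible because each group is 1 merged list, and for the same reason no library could be left out. The depth is unknown, so it could not be said which regions lie near the limit of detection.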

Other observations

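The pairs covered all autosomes, with 84 on chromosome 6 and 81 each on chromosomes 1 and 2. On chromosome X there was 1, of 6 distal and 30 sham regions in all. It lay in an intron of Tsc22d3, the glucocorticoid-induced gene of the protein GILZ, 14638 bp upstream of the start used, with widths of 8075 and 13375 bp in sham and PHx liver.

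MicroRNA genes were nearest to 16 pairs (1.48%), against 1.79% of all distal sham regions. That of Mir15a, in an intron of the noncoding RNA gene Dleu2 that hosts it, measured 7898 and 11461 bp. A pair over an exon of 9130204K15Rik near Mir365-2 had 21363 and 21853 bp, and a Med27 intron pair near Mir133c had 8805 and 10970 bp.

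Among genes named by 2 pairs, 3 are given here that were chosen after their values were seen. One was Angpt2, the angiopoietin 2 gene (11111 and 14054 bp, and 6589 and 17847 bp), whose promoter region was listed after PHx only. At Tlr2, a receptor of innate immunity, the pairs had 7343 and 8824 bp and 12784 and 19044 bp, and the promoter region was listed in sham only. Slc38a2, an amino acid transporter gene, had upstream pairs of 13762 and 20745 bp and of 18325 and 25801 bp.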
